A study of Homo sapiens with 12 samples.

Results

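Fatty acid oxidation breaks fatty acids into acetyl-CoA in mitochondria and, for long and branched chains, in peroxisomes. Here it is described through 35 genes, picked by name for the carnitine shuttle, the oxidation enzymes, electron transfer and the PPAR and PGC-1 regulators, out of 26334 genes in the table. The study used HK-2, an established line of human renal proximal tubule cells, with a doxycycline-inducible PRCC-TFE3 gene. PRCC-TFE3 is a fusion transcription factor of translocation renal cell carcinoma. All 4 groups carried the inducible gene, grew in medium with puromycin and blasticidin S, and were kept for 48 h, with 3 biological replicates each. They received vehicle (DMSO), doxycycline with vehicle (Dox), the CDK8 and CDK19 inhibitor MSC2530818 at 100 nM, or Dox and MSC2530818 together. CDK8 and CDK19 are kinases of Mediator, the complex that links transcription factors to RNA polymerase II. No group received Dox without the fusion gene, so the effects of Dox and of the fusion cannot be told apart. The labels do not say whether the line is a single clone or what dose of Dox was given. The data are bulk poly(A) RNA levels, in which fewer cells of a type and less RNA per cell cannot be told apart.

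Values are FPKM, fragment numbers scaled by the authors to transcript length and library size, as deposited. Changes are differences of log2(FPKM + 1) between group means, given ± SE, and are smaller than the true fold for genes with low FPKM. Testing was limited to the 12649 genes with 1 FPKM or more in 3 or more of the 12 libraries. A gene was called at a limma adjusted p under 0.05, adjusted over all tested genes. FPKM sums ran from 429208 to 473950 per library, and the number of fragments behind them is unknown. TFE3, the induced fusion partner, averaged 35.8 ± 3.1 FPKM (SD, n = 3) in vehicle. It averaged 150 ± 4 with Dox, 27.8 ± 1.7 with the inhibitor and 84.2 ± 3.1 with both. Reads of the fusion and of the cells' own TFE3 are not separated in it. The interaction for TFE3 was -0.47 (adjusted p = 0.023), so its rise with Dox was smaller with the inhibitor. Of 18 proximal tubule markers, PAX8 (81.6 to 135 FPKM) and the keratins KRT8 and KRT18 were present, while 10 stayed under 1 FPKM in every library. LRP2, ANPEP and HNF4A, which define the differentiated proximal tubule, lay between 0 and 0.05 FPKM. The summed markers of proximal tubule ran from 665 to 788 in vehicle, 550 to 576 with Dox, 805 to 937 with the inhibitor and 643 to 695 with both. That sum mostly reflects the keratins. In the same order KRT8 averaged 295, 223, 358 and 273 FPKM, and KRT18 209, 150, 233 and 160. GGT1 went the other way with Dox, from 39.7 to 48.4. Of the 7 tested markers Dox raised 1 and lowered 4, against 10.6% and 7.31% of all tested genes. Of 7 leukocyte markers 6 stayed under 1 FPKM, so the sum of the 7 mostly reflects the 1 marker that was tested. That sum ran from 34.7 to 42.8 in vehicle, 53.4 to 58.9 with Dox, 25.8 to 31.4 with the inhibitor and 30 to 34.2 with both. Of 7 fibroblast and smooth muscle markers 4 stayed under 1, and the sums in the same order were 6.69 to 7.32, 11 to 12.2, 10.8 to 11.8 and 14.1 to 14.4. Of 5 podocyte markers 3 stayed under 1, and the sums were 18.2 to 21.5, 17.4 to 18.1, 25.2 to 27.3 and 19.4 to 21.1. The part of these markers in the changes of the oxidation genes was not tested. All 8 distal tubule, all 6 endothelial and all 6 adipocyte and hepatocyte markers stayed under 1 FPKM.

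Long-chain acyl groups enter mitochondria on carnitine and are then shortened in cycles of dehydrogenation, hydration, a second dehydrogenation and thiolysis. Each first dehydrogenation passes electrons through the electron transfer flavoprotein and its oxidoreductase to ubiquinone. The proximal tubule is known for its reliance on this pathway, under the control of PPARA and the coactivator PGC-1 alpha.

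The promoters shown are those of ETFA and ETFB, the subunits of the electron transfer flavoprotein, which fell together with the inhibitor, and of PPARGC1A, the gene of PGC-1 alpha, which rose with Dox. They come from RefSeq (GRCh38.p14), cover part of the window from 250 bases before to 50 after a RefSeq start, and run 5′ to 3′ on the minus strand, the coding strand of each gene. Capitals mark CCAAT on either strand in ETFA (chr15:76311473-76311719) and ETFB (chr19:51366419-51366638), and CACGTG in PPARGC1A (chr4:24472993-24473058).
ETFA: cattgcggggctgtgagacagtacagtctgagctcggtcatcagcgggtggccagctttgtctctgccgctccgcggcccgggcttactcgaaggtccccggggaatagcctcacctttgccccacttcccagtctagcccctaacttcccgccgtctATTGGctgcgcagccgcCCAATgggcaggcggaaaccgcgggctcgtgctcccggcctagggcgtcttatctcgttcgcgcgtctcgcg
ETFB: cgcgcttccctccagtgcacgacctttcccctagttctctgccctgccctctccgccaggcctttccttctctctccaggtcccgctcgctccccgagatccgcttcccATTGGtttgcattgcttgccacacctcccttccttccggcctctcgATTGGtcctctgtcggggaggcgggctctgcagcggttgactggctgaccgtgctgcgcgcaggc
PPARGC1A: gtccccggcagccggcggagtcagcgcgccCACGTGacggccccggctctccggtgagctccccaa
Each motif was searched on both strands of the whole windows. CACGTG, the core of the sites bound by TFE3 and its relatives, was in 7.26% of 35116 windows. Among 36 windows of 27 members it was found in 2, ACAD9 at 125 bases before the start and PPARGC1A at 123. The PPARGC1A match lies at a distal start (24472905), and the window at its other listed start (23881101) held none. The distal start lies outside the span that GENCODE 29 gives the gene, and the table holds 1 value per gene, not per start. ACAD9, a dehydrogenase and complex I assembly factor, was called in none of the comparisons. The longer palindromic CLEAR element, which contains CACGTG, the related TCATGTG, the PPAR direct repeat with 1 free base and the ERR site TCAAGGTCA were in 0.353%, 2.92%, 0.0228% and 0.353% of all windows. None of these 4 was in a member window, which says only that the letters are not there. CCAAT was in 34.6% of all windows and in 8 of the 36. It occurred 2 times each in ETFA, at 92 and 75 bases before the start, and ETFB, at 141 and 95. The ETFB matches lie at the start at 51366388, and the window at its other listed start (51354842) held none. The palindromic NRF1 site was in 5.78% of windows and in those of ACAD9, ETFB, ABCD3 and PPARA. The ETS site ACTTCCGG was in 4.14% and in that of CPT2.

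Of the 35 members, 31 were tested and 20 were called in at least 1 comparison. Dox without the inhibitor raised 9 members and lowered 1, against 17.9% of all tested genes called (10.6% higher and 7.31% lower). The median change was 0.11 for the members and 0.04 for all tested genes. The members' median was 0.04 without DMSO 3 (all genes 0.035), 0.06 without Dox 2, and 0.05 under either scaling or with the trend on transcript length and GC content removed. Of all called genes 59.2% were higher, but 41.6% with median-ratio scaling and 43.3% with quantile normalization, where members counted 8 higher and 2 lower under either. With the inhibitor present, Dox raised 7 members and lowered 2, against 18.2% called (12.2% higher and 6.06% lower). The medians were 0.13 and 0.08. The members' median was 0.07 without inhibitor 3 (all genes 0.075) or with quantile normalization, and 0.04 with median-ratio scaling or the trend removed. Here 66.7% of all called genes were higher, 33.7% after median-ratio scaling (members 5 higher and 3 lower) and 41% after quantile normalization (4 and 3). With the replicate number as a block, which pairs the libraries of this comparison, 11 members were higher and 3 lower. Counts fell to 5 higher and 0 lower in a fit of these libraries alone, without inhibitor 2 or without Dox plus inhibitor 1, and to 4 higher and 0 lower without Dox plus inhibitor 2 or 3. Both Dox comparisons, which share no library, had 7 higher members in common, which are 7 of 9 and 7 of 7. Over all tested genes, 640 were higher in both, 47.6% and 41.6% of those higher in each. The 7 members are ACADSB, HADHB, DECR1, ETFA, ETFDH, HSD17B4 and EHHADH. With the trend on length and GC removed, only DECR1, ETFDH and EHHADH of these stayed called in both comparisons. Under the inhibitor ACADSB, HADHB, ETFA and HSD17B4 then changed by 0.07, -0.01, 0.07 and 0.02. That removal called ACADS, DECR2 and ETFB higher in both.

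The inhibitor changed more members, as it changed more genes. Without Dox it raised 6 and lowered 9, against 38.0% of all tested genes called (11.7% higher and 26.3% lower). The medians of members and of all genes were both -0.12. Median-ratio scaling moved the median of all genes to -0.01, and the members then counted 8 higher and 6 lower (7 and 8 after quantile normalization). Of all called genes 30.8% were higher, 54.9% with median-ratio scaling and 49.7% with quantile normalization. With Dox the inhibitor raised 5 members and lowered 9, against 32.1% called (11.3% higher and 20.8% lower), at medians of -0.20 and -0.08. The members' median was -0.12 with median-ratio scaling and -0.11 with quantile normalization or the trend removed, and either scaling gave 6 higher and 8 lower members. Of all called genes 35.3% were higher here, 54.1% and 50.3% under the same scalings. In common to both inhibitor comparisons were 5 lower members, which are 5 of 9 in each (SLC25A20, DECR1, ETFA, ETFB and ETFDH). There were 5 higher members in common, which are 5 of 6 and 5 of 5 (ACAD11, ECI2, ACOX3, PPARA and PPARD). Over all tested genes, 1909 were lower in both (57.4% and 72.6% of those lower in each) and 1012 higher in both (68.4% and 70.6%). The interaction, the Dox change with the inhibitor minus that without it, called 1 member, CPT1A, which was lower, against 2.82% of all genes (0.909% higher and 1.91% lower). At an unadjusted p under 0.05, 0 members were higher in it and 3 lower. The plot of all changes shows these counts by gene.

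**Figure D1:**
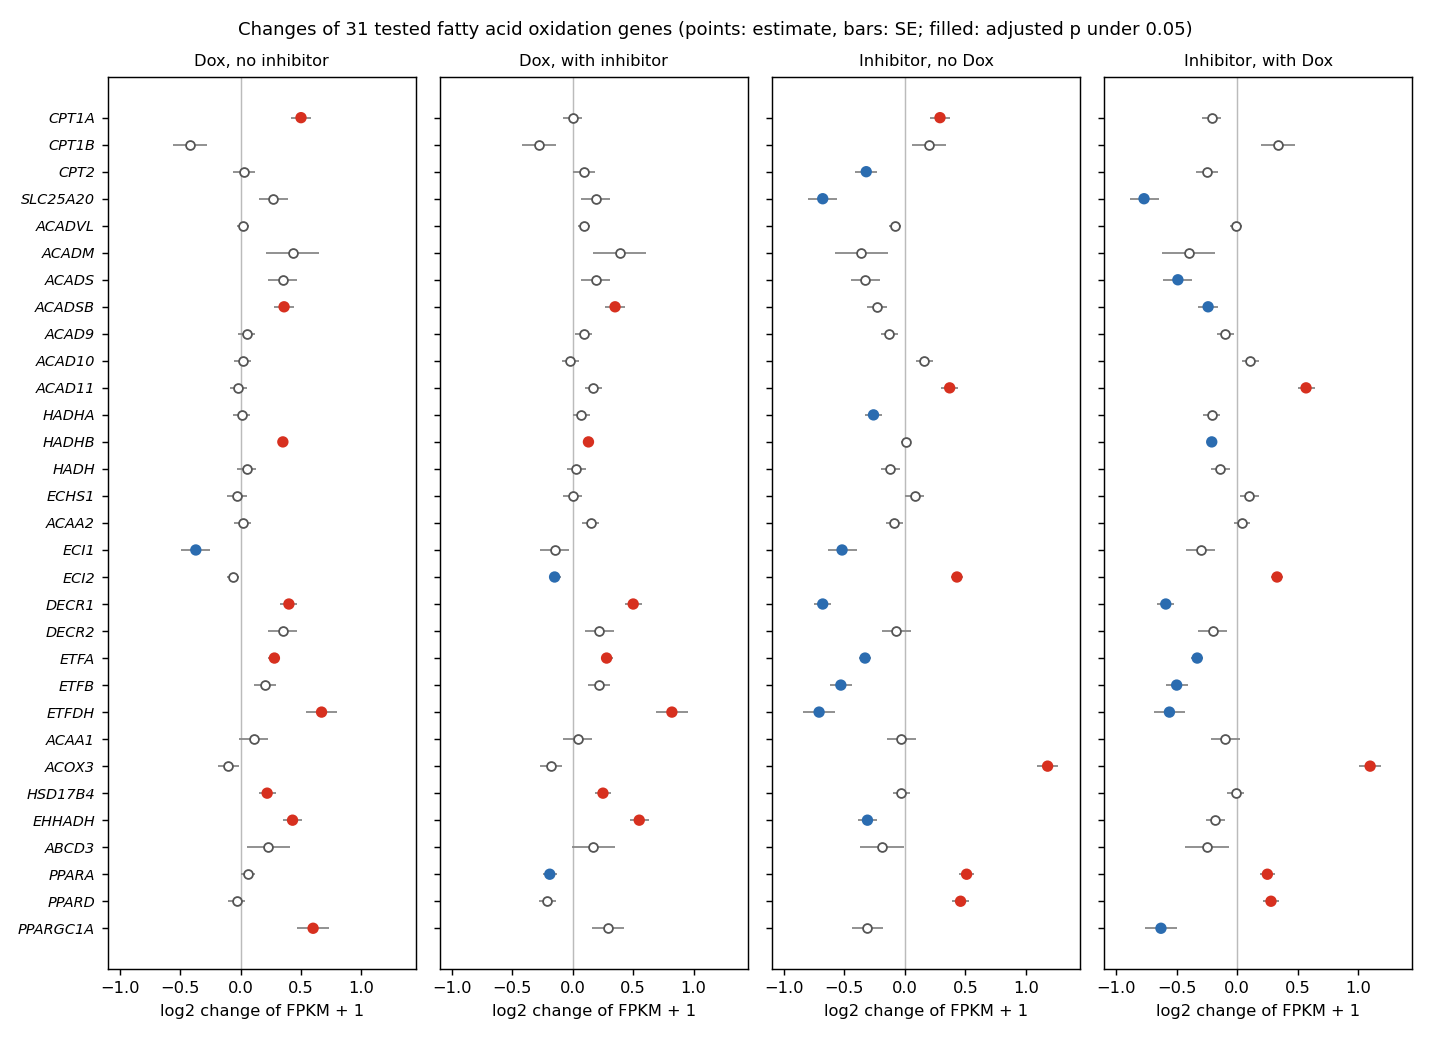
Changes in log2(FPKM + 1) (x axis) of the 31 tested members (y axis) in the 4 comparisons, with SE bars. Filled points passed an adjusted p of 0.05 (red higher, blue lower), and ACOX3 lies farthest to the right with the inhibitor, at 1.18 and 1.10.

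Electron transfer gave the most uniform changes. ETFA (chromosome 15, 76215355 to 76311472, minus strand, GRCh38) encodes the alpha subunit of the flavoprotein that collects electrons from the acyl-CoA dehydrogenases. It stood at 57.2, 57.0 and 61.8 FPKM in vehicle, 73.5, 70.6 and 70.2 with Dox, 45.5, 47.4 and 46.9 with the inhibitor and 54.3, 59.0 and 56.5 with both. Dox libraries lay above all vehicle libraries and inhibitor libraries below them, while vehicle and Dox plus inhibitor overlapped. ETFA rose with Dox by 0.28 ± 0.05 (adjusted p = 0.0028), and with the inhibitor present by 0.28 ± 0.05 (adjusted p = 0.0046). ETFA fell with the inhibitor both without Dox (-0.33 ± 0.05, adjusted p = 4.7e-04) and with it (-0.33 ± 0.05, adjusted p = 5.1e-04). With the trend on transcript length and GC content removed, the second rise was 0.07 (adjusted p = 0.36) and no longer called. The first rise was then 0.16 and the fall without Dox -0.14, both still called. After median-ratio scaling the second rise was 0.18 and the fall without Dox -0.21, also still called.

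ETFB (chromosome 19, 51345169 to 51366418, minus strand), the beta subunit, whose promoter is also shown above, stood at 56.5, 51.0 and 48.8 FPKM in vehicle, 61.0, 58.1 and 60.1 with Dox, 40.7, 33.7 and 33.5 with the inhibitor and 46.0, 38.3 and 41.9 with both. All inhibitor libraries, with or without Dox, lay below all libraries without it. The falls were -0.53 (adjusted p = 8.2e-04) without Dox and -0.50 (adjusted p = 0.0014) with it. With Dox ETFB changed by 0.20 (adjusted p = 0.15) and, under the inhibitor, by 0.22 (adjusted p = 0.1), neither called, and the latter had adjusted p = 0.013 with the replicate block.

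ETFDH (chromosome 4, 158672125 to 158709623, plus strand) encodes the oxidoreductase that hands those electrons to ubiquinone. It stood at 4.66, 5.54 and 5.9 FPKM in vehicle, 8.62, 8.73 and 9.96 with Dox, 2.21, 2.92 and 3.64 with the inhibitor and 5.83, 5.35 and 6.34 with both. Every Dox library was above every vehicle library, and every inhibitor library was below, while Dox plus inhibitor and vehicle overlapped. ETFDH rose by 0.67 ± 0.13 (adjusted p = 0.0038) with Dox and by 0.82 ± 0.13 (adjusted p = 0.0018) with Dox under the inhibitor, the largest rises with Dox among the called members in both comparisons. It fell with the inhibitor without Dox (-0.71 ± 0.13, adjusted p = 0.0012) and with it (-0.56 ± 0.13, adjusted p = 0.0059). All 4 calls remained under every alternative run. The interaction was 0.15 ± 0.18 (adjusted p = 0.82).

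**Figure D2:**
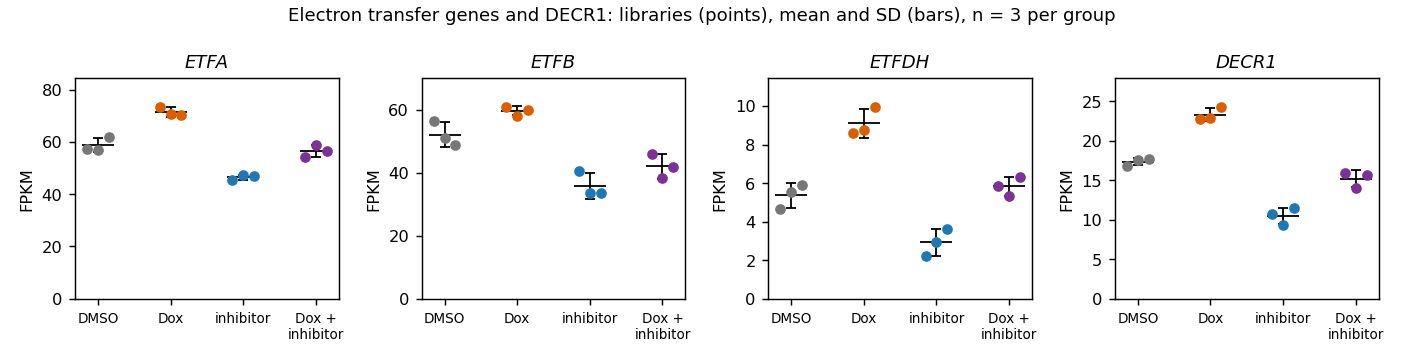
FPKM (y axis, from 0) of ETFA, ETFB, ETFDH and DECR1 in the 3 libraries of each group (points), with mean and SD. In DECR1 the 4 groups do not overlap, with Dox highest and the inhibitor alone lowest, at 9.37 to 11.4 FPKM.

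Of 12 related genes for flavoprotein regulation, riboflavin supply and complex I assembly, 9 were tested. Dox raised 3 without the inhibitor, and raised 1 and lowered 2 with it. The inhibitor raised 1 and lowered 2 without Dox and lowered 5 with it. The shares called, 33.3%, 33.3%, 33.3% and 55.6% in this order, read against 17.9%, 18.2%, 38.0% and 32.1% of all tested genes. LYRM5, the table's name for the flavoprotein regulatory factor ETFRF1, averaged 6.19 FPKM in vehicle, 9.36 with Dox, 3.30 with the inhibitor and 4.44 with both. It fell with the inhibitor (-0.72 ± 0.17, adjusted p = 0.0057) and with the inhibitor in Dox (-0.95 ± 0.17, adjusted p = 0.0013). TMEM126B, a complex I assembly factor, rose with Dox by 0.70 ± 0.10 (adjusted p = 4.9e-04) and fell with the inhibitor in Dox (-0.48 ± 0.10, adjusted p = 0.0032), a fall of -0.31 with the length and GC trend removed.

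Auxiliary enzymes of unsaturated fatty acids moved in both directions. DECR1, the mitochondrial dienoyl-CoA reductase, stood at 16.8, 17.6 and 17.7 FPKM in vehicle, 22.8, 22.9 and 24.3 with Dox, 10.7, 9.37 and 11.4 with the inhibitor and 15.9, 14.0 and 15.7 with both. No group overlapped another. DECR1 rose with Dox by 0.40 ± 0.07 (adjusted p = 0.0029), and under the inhibitor by 0.50 ± 0.07 (adjusted p = 0.0013). It fell with the inhibitor (-0.68 ± 0.07, adjusted p = 3.7e-05), and with the inhibitor in Dox (-0.59 ± 0.07, adjusted p = 1.3e-04). All 4 calls remained under every alternative, although the rise under the inhibitor was 0.28 with the length and GC trend removed. DECR2, its peroxisomal counterpart, lay at 2.16 to 4.29 FPKM and was called in none. It was called higher with the length and GC trend removed for Dox (0.39, adjusted p = 0.012) and for Dox under the inhibitor (0.31, adjusted p = 0.047).

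ECI1 and ECI2, which both shift the double bond of enoyl-CoA, went opposite ways with the inhibitor without Dox. ECI1 (chromosome 16, 2239395 to 2252300, minus strand), in mitochondria, stood at 42.6, 41.2 and 33.0 FPKM in vehicle, 27.1, 32.3 and 30.1 with Dox, 31.9, 24.9 and 23.8 with the inhibitor and 24.4, 23.8 and 23.5 with both. It fell with the inhibitor without Dox (-0.52 ± 0.12, adjusted p = 0.0047), and no library of these groups overlapped. With Dox it was called lower at -0.37 ± 0.12, adjusted p = 0.0499, close to the threshold. That call ended with a pseudocount of 0.1, without the filter, in a fit of these 2 groups alone, and without any library but DMSO 3, inhibitor 1 and inhibitor 3 (-0.43 to -0.30). ECI2 (chromosome 6, 4115689 to 4135597, minus strand), found in mitochondria and peroxisomes, stood at 43.5, 46.0 and 45.3 FPKM in vehicle, 43.9, 42.7 and 42.5 with Dox, 63.1, 60.5 and 58.7 with the inhibitor and 52.9, 55.6 and 55.0 with both. All 6 inhibitor libraries were above the other 6. ECI2 rose by 0.43 ± 0.05 (adjusted p = 4.0e-05) without Dox and 0.33 ± 0.05 (adjusted p = 2.8e-04) with it. With Dox under the inhibitor it fell (-0.15 ± 0.05, adjusted p = 0.043), a call that ended in a fit of these libraries alone and without any library but DMSO 1, DMSO 3 and inhibitor 3 (-0.17 to -0.13). The fall was -0.25 after median-ratio scaling and -0.30 with the length and GC trend removed.

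In the carnitine shuttle, CPT1A and SLC25A20 moved in different ways. CPT1A (chromosome 11, 68754620 to 68844410, minus strand), the rate-controlling acyltransferase of the outer membrane, stood at 5.69, 5.57 and 5.01 FPKM in vehicle, 8.38, 8.47 and 7.46 with Dox, 7.25, 7.26 and 6.1 with the inhibitor and 7.24, 6.84 and 6.48 with both. Vehicle libraries were lowest and Dox libraries highest, with no overlap, and the inhibitor groups lay between and overlapped each other. CPT1A rose with Dox by 0.50 ± 0.08 (adjusted p = 0.0013), but changed by -0.00 (adjusted p = 1) when the inhibitor was present. The difference between these changes was -0.50 ± 0.11, adjusted p = 0.039. That call ended without the filter (adjusted p = 0.063), after quantile normalization (0.099), and without any library but DMSO 1, Dox 3 and inhibitor 3 (-0.54 to -0.46, adjusted p = 0.054 to 0.12). CPT1A also rose with the inhibitor without Dox, by 0.29 ± 0.08 (adjusted p = 0.015). This ended in a fit of these libraries alone, without DMSO 3 (0.24) and without inhibitor 2 (0.25).

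SLC25A20 (chromosome 3, 48856931 to 48898993, minus strand) is the carnitine-acylcarnitine carrier of the inner membrane. It stood at 2.9, 2.97 and 2.58 FPKM in vehicle, 3.93, 3.63 and 3.3 with Dox, 1.84, 1.38 and 0.99 with the inhibitor and 1.56, 1.69 and 1.89 with both. All inhibitor libraries lay below all others. SLC25A20 fell with the inhibitor (-0.68 ± 0.12, adjusted p = 0.001) and with the inhibitor in Dox (-0.77 ± 0.12, adjusted p = 5.5e-04). Its Dox libraries lay above vehicle without overlap, but the change of 0.27 (adjusted p = 0.14) was not called. CPT2 (chromosome 1, 53196429 to 53214197, plus strand), which returns the acyl group to CoA inside, stood at 4.05, 3.35 and 3.51 FPKM in vehicle, 3.62, 3.87 and 3.69 with Dox, 3.11, 2.62 and 2.45 with the inhibitor and 3.33, 2.69 and 2.91 with both. CPT2 fell with the inhibitor without Dox (-0.32 ± 0.09, adjusted p = 0.018), with no overlap. That call ended after median-ratio scaling (-0.23) and quantile normalization (-0.22), in a fit of these libraries alone, and without DMSO 1 (-0.25), inhibitor 2 (-0.30) or inhibitor 3 (-0.26). CPT1B, the muscle form, lay at 2.99 to 7.27 FPKM and was called in none. After median-ratio and quantile scaling it was called for Dox (-0.46 and -0.51) and for the inhibitor in Dox (0.41 and 0.42). It shares exons with the read-through gene CHKB-CPT1B (0 to 1.29 FPKM), so its value is uncertain. CPT1C, the brain form, lay at 0 to 0.09 FPKM and was not tested.

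**Figure D3:**
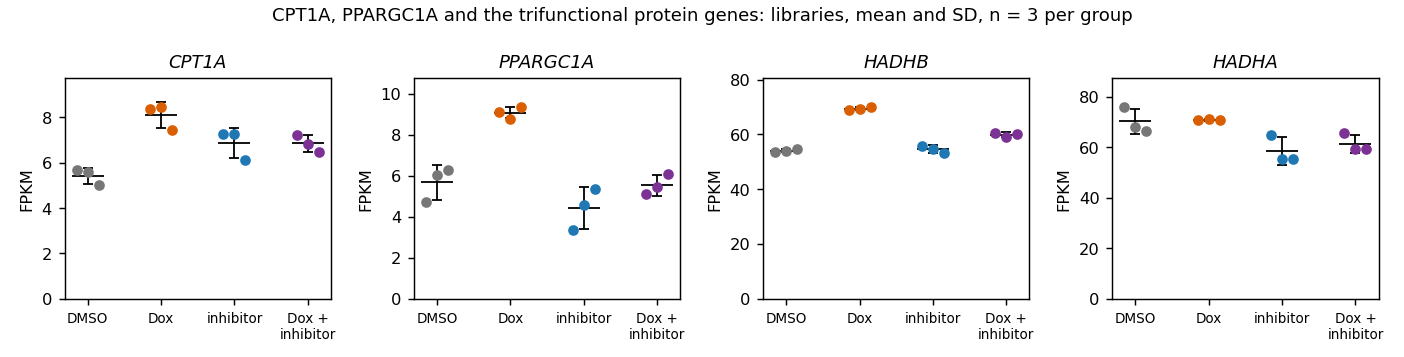
FPKM (y axis, from 0) of CPT1A, PPARGC1A, HADHB and HADHA in the 3 libraries of each group, with mean and SD. Dox raised HADHB from 53.6 to 54.6 FPKM in vehicle to 68.7 to 70.1, while HADHA in Dox (70.6 to 71.1) stayed within the vehicle range.

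Among the acyl-CoA dehydrogenases, the most abundant, ACADVL, was called in no comparison. ACADVL, for very long chains, lay at 111 to 128 FPKM over all 12 libraries. ACADM, for medium chains, stood at 9.76, 14.1 and 17.4 FPKM in vehicle, 17.2, 18.3 and 20.0 with Dox, 7.24, 11.3 and 13 with the inhibitor and 11.8, 13.5 and 16.3 with both. Dox libraries lay above all inhibitor libraries, with or without Dox, and the vehicle libraries overlapped every other group. In each group replicate 1 was lowest. ACADM was called with the replicate block for Dox under the inhibitor (0.39, adjusted p = 0.018), against 0.39 (adjusted p = 0.21) without it. With the length and GC trend removed that change was 0.12, and not called with or without the block. A fit of the Dox and Dox plus inhibitor libraries alone called ACADM lower in the latter (-0.40, adjusted p = 0.025). The main fit did not (adjusted p = 0.19). Trend removal with the block called that fall too (-0.27, adjusted p = 0.0068). It also called a rise with Dox without the inhibitor (0.24, adjusted p = 0.018). In both comparisons replicate numbers were not taken as pairs, and trend removal without the block called neither change. ACADS (chromosome 12, 120725735 to 120740008, plus strand), for short chains, stood at 5.77, 5.66 and 5.19 FPKM in vehicle, 6.16, 8 and 7.97 with Dox, 5.12, 4.2 and 3.41 with the inhibitor and 5.32, 4.6 and 4.85 with both. ACADS fell with the inhibitor in Dox (-0.49 ± 0.12, adjusted p = 0.0096), with no overlap, and quantile normalization ended that call (-0.41, adjusted p = 0.053).

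ACADSB (chromosome 10, 123008979 to 123058311, plus strand), for short branched chains, stood at 2.72, 2.78 and 3.11 FPKM in vehicle, 3.96, 3.73 and 4.21 with Dox, 1.98, 2.47 and 2.49 with the inhibitor and 2.97, 3.27 and 3.39 with both. It rose with Dox by 0.36 ± 0.08 (adjusted p = 0.012) and, under the inhibitor, by 0.35 ± 0.08 (adjusted p = 0.017). Neither rise was called with the length and GC trend taken out (0.15 and 0.07, adjusted p = 0.20 and 0.61). The first call also ended without Dox 3 (0.33). The second ended after quantile normalization (0.23), in a fit of these libraries alone, and without inhibitor 1 (0.27) or Dox plus inhibitor 2 (0.34) or 3 (0.32). Its fall with the inhibitor in Dox (-0.24 ± 0.08, adjusted p = 0.047) ended with a pseudocount of 0.1 (-0.30), without the filter (-0.24), and without any library but DMSO 1, DMSO 3 and inhibitor 1 (-0.27 to -0.20). It also ended under median-ratio scaling (-0.17), quantile normalization (-0.18) and the trend removal, with or without the replicate block (-0.13 in each).

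ACAD11 (chromosome 3, 132558138 to 132660723, minus strand), which acts on long chains, stood at 6.32, 7.3 and 7.69 FPKM in vehicle, 7.09, 6.81 and 7.02 with Dox, 9.26, 10.1 and 9.1 with the inhibitor and 11, 11.3 and 10.2 with both. All inhibitor libraries were above all others. It rose by 0.37 ± 0.07 (adjusted p = 0.0021) without Dox and 0.57 ± 0.07 (adjusted p = 1.5e-04) with it, under every alternative. ACAD9 (31.7 to 39.4 FPKM) and ACAD10 (3.27 to 4.25) were called in none, though ACAD10 was called for the inhibitor without Dox after either scaling (0.26 in each). ACADL, for long chains, lay at 0 to 0.17 FPKM and was not tested.

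HADHA and HADHB encode the alpha and beta subunits of the mitochondrial trifunctional protein, which carries out the later steps for long chains. They lie head to head on chromosome 2 (HADHA 26190635 to 26244726, minus strand, and HADHB 26243170 to 26290468, plus strand). Their RefSeq starts are 307 bases apart. HADHA stood at 76.1, 68.1 and 66.6 FPKM in vehicle, 70.7, 71.1 and 70.6 with Dox, 64.9, 55.4 and 55.4 with the inhibitor and 65.5, 59.3 and 59.3 with both. HADHB stood at 53.6, 54.0 and 54.6 FPKM in vehicle, 68.7, 69.4 and 70.1 with Dox, 55.9, 54.7 and 53.2 with the inhibitor and 60.5, 58.9 and 60.1 with both. HADHB in Dox lay above all other libraries, while HADHA in Dox was within the vehicle range. HADHB rose with Dox by 0.35 ± 0.04 (adjusted p = 1.2e-04) and HADHA changed by 0.01 (adjusted p = 0.91). With the inhibitor in Dox HADHB fell (-0.21 ± 0.04, adjusted p = 0.0023), a change of -0.12 after median-ratio scaling. Without Dox the inhibitor changed it by 0.01 (adjusted p = 0.81), and by 0.13, called, after that scaling. The interaction for HADHB was -0.22 ± 0.06, adjusted p = 0.067, and it was called without the filter (0.026) and after both scalings (0.045 and 0.028). Its smaller rise with Dox under the inhibitor (0.13 ± 0.04, adjusted p = 0.047) ended under both scalings (0.04 and 0.11), in a fit of these libraries alone, and without any library but DMSO 1 and DMSO 3 (0.11 to 0.15). That rise reversed with the length and GC trend taken out (-0.01, adjusted p = 0.88). HADHA fell with the inhibitor without Dox (-0.26 ± 0.07, adjusted p = 0.016). This call ended after median-ratio scaling (-0.14), with the trend removed (-0.19), in a fit of these libraries alone, and without DMSO 1 (-0.20), inhibitor 2 (-0.22) or inhibitor 3 (-0.22). With the inhibitor in Dox, HADHA lay below Dox alone without overlap, but the main fit did not call it. It was called lower there in a fit of those libraries alone (-0.21, adjusted p = 0.016) and after quantile normalization (-0.18, adjusted p = 0.046). The same held at a mean FPKM of at least 5 (-0.21, adjusted p = 0.049) and without DMSO 1, inhibitor 1 or Dox plus inhibitor 1.

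The ratio of HADHB to HADHA, a measure chosen after their values were seen, was 0.705, 0.792 and 0.819 in vehicle and 0.972, 0.976 and 0.992 with Dox. It was 0.862, 0.987 and 0.962 with the inhibitor and 0.924, 0.994 and 1.01 with both. The vehicle libraries lay below all 9 others. An exact two-sided permutation test gave p = 0.1 for Dox and for the inhibitor against vehicle, the smallest p that 3 against 3 allow (0.2 adjusted over 4 comparisons). The same exact test gave p = 0.5 for Dox under the inhibitor and p = 1.0 for the inhibitor in Dox. It treated the libraries as unpaired, also for Dox under the inhibitor, where this report takes replicate numbers as pairs. In that comparison each ratio with both was above that of the inhibitor library of the same number. No paired test of the ratio was run. The annotated genes overlap at their starts on opposite strands, and whether strand was used in counting is not given in the sources used here. HADH (hydroxyacyl-CoA dehydrogenase, 11.3 to 14.5 FPKM), ECHS1 (short-chain enoyl-CoA hydratase, 151 to 191) and ACAA2 (thiolase, 35.1 to 43.1) were called in none. With the replicate block, ACAA2 was called for Dox under the inhibitor (0.15, adjusted p = 0.047), but with the length and GC trend removed the change was 0.01 and not called with or without the block.

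Peroxisomal genes held the largest change. ACOX3 (chromosome 4, 8366282 to 8440723, minus strand), an acyl-CoA oxidase for branched chains, stood at 8.24, 7.34 and 6.85 FPKM in vehicle, 6.64, 6.9 and 7.19 with Dox, 21.3, 16.9 and 16.8 with the inhibitor and 16.4, 16.0 and 15.3 with both. All 6 inhibitor libraries were above 15 FPKM and all others under 8.5. ACOX3 rose by 1.18 ± 0.09 (adjusted p = 2.9e-06) without Dox and 1.10 ± 0.09 (adjusted p = 5.6e-06) with it, under every alternative. Dox changed it by -0.10 (adjusted p = 0.49) and -0.18 (adjusted p = 0.17) without and with the inhibitor. ACOX2, the oxidase for bile acid precursors, lay at 0 to 0.16 FPKM and was not tested.

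**Figure D4:**
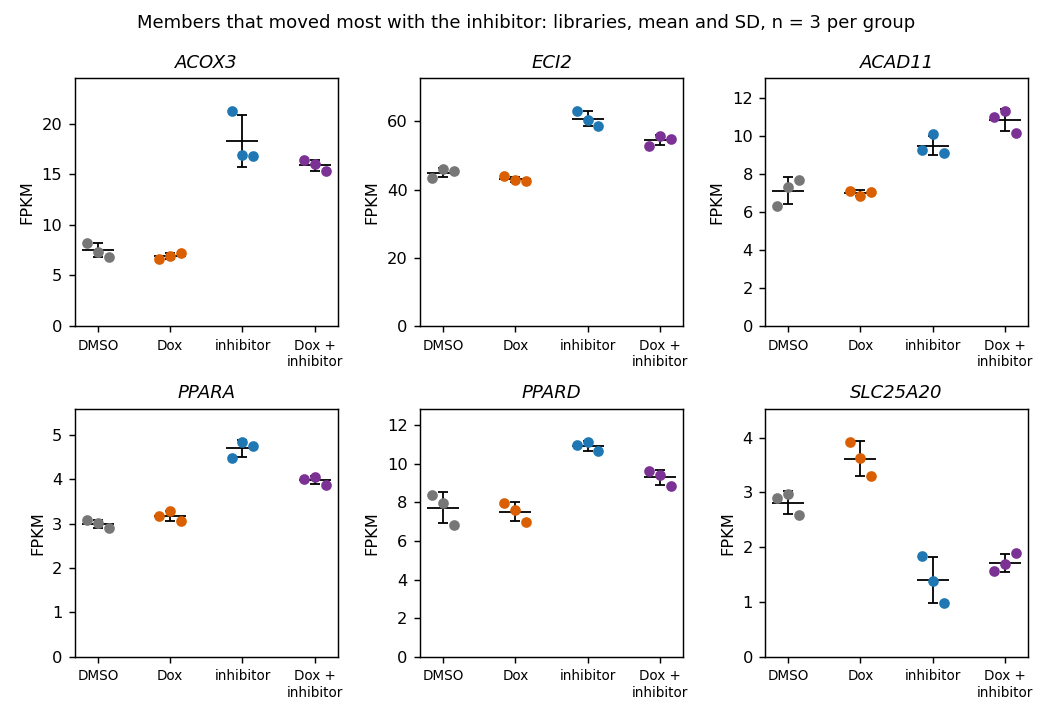
FPKM (y axis, from 0) of 6 members that changed with the inhibitor, in the 3 libraries of each group, with mean and SD. ACOX3, ECI2, ACAD11, PPARA and PPARD were higher, and SLC25A20 lower, in all 6 libraries with the inhibitor than in the 6 without it.

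EHHADH (chromosome 3, 185190624 to 185281990, minus strand) and HSD17B4 (chromosome 5, 119452443 to 119637199, plus strand) encode the bifunctional enzymes that follow the oxidase. EHHADH stood at 5.46, 6.49 and 6.6 FPKM in vehicle, 8.59, 8.69 and 8.64 with Dox, 4.4, 4.66 and 5.32 with the inhibitor and 6.91, 7.68 and 7.92 with both. No group overlapped another, and Dox was highest. It rose with Dox by 0.43 ± 0.08 (adjusted p = 0.0043) and under the inhibitor by 0.55 ± 0.08 (adjusted p = 0.0014), under every alternative. Its fall with the inhibitor without Dox (-0.31 ± 0.08, adjusted p = 0.013) ended after median-ratio scaling (-0.21), in a fit of these libraries alone and without DMSO 2 (-0.28). It was -0.20 after quantile normalization and -0.17 with the trend removed, both still called.

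HSD17B4 stood at 33.5, 38.7 and 39.8 FPKM in vehicle, 44.4, 41.5 and 45.3 with Dox, 34.6, 36.6 and 38.2 with the inhibitor and 44.1, 42.8 and 43.6 with both. All 6 Dox libraries were above the 6 others. The rises were 0.22 (adjusted p = 0.041) and 0.25 (adjusted p = 0.028), and both ended after either scaling (0.16 for each with median-ratio scaling and 0.22 for each with quantile normalization). Both also ended with the trend on length and GC removed (0.08 and 0.02). The first also ended without the filter, in a fit of these libraries alone, and without any library but DMSO 3, inhibitor 1 and inhibitor 3 (0.15 to 0.26). The second ended without inhibitor 1 (0.21) or 2 (0.25), or Dox plus inhibitor 1 (0.24), 2 (0.26) or 3 (0.25). ACAA1, the peroxisomal thiolase, lay at 11.3 to 16.1 FPKM, and ABCD3, an importer of fatty acyl-CoA, at 14.8 to 27.1. Neither was called.

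With the inhibitor in Dox, the regulators moved in opposite directions. PPARA (chromosome 22, 46150521 to 46243756, plus strand), the fatty acid receptor that drives many oxidation genes, stood at 3.08, 3.02 and 2.9 FPKM in vehicle, 3.17, 3.29 and 3.06 with Dox, 4.49, 4.85 and 4.75 with the inhibitor and 4.01, 4.05 and 3.87 with both. All inhibitor libraries were above all others. PPARA rose by 0.51 ± 0.06 (adjusted p = 5.7e-05) without Dox and by 0.25 ± 0.06 (adjusted p = 0.0066) with it. Its fall with Dox under the inhibitor (-0.19 ± 0.06, adjusted p = 0.042) ended without the filter, in a fit of these libraries alone, and without any library but DMSO 1 and DMSO 3 (-0.22 to -0.18). It was -0.32 after quantile normalization.

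PPARD (chromosome 6, 35342558 to 35428191, plus strand), a related receptor, stood at 8.37, 7.96 and 6.82 FPKM in vehicle, 7.96, 7.61 and 7 with Dox, 11, 11.2 and 10.7 with the inhibitor and 9.61, 9.44 and 8.88 with both. Again the inhibitor libraries did not overlap the rest. It rose by 0.46 ± 0.07 (adjusted p = 6.5e-04) without Dox and by 0.28 ± 0.07 (adjusted p = 0.015) with it, and the latter call ended without Dox 3 (0.23, adjusted p = 0.066). With Dox under the inhibitor the change was -0.21 (adjusted p = 0.069), called with the replicate block (adjusted p = 0.016).

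PPARGC1A (chromosome 4, 23755041 to 23904089, minus strand), whose distal promoter is shown above, stood at 4.7, 6.06 and 6.3 FPKM in vehicle, 9.1, 8.79 and 9.37 with Dox, 3.33, 4.56 and 5.37 with the inhibitor and 5.09, 5.43 and 6.11 with both. Dox libraries were above all 9 others, and the other groups overlapped. It rose with Dox by 0.60 ± 0.13 (adjusted p = 0.0097) and fell with the inhibitor in Dox (-0.63 ± 0.13, adjusted p = 0.0044). These comparisons share the Dox libraries. Under the inhibitor Dox changed it by 0.29 (adjusted p = 0.15), called with the replicate block (adjusted p = 0.035). With the length and GC trend removed that change was 0.10, and not called with or without the block. The interaction was -0.31 ± 0.19, adjusted p = 0.53. PPARGC1B, its homologue, lay at 0.17 to 0.54 FPKM and was tested only without the filter, where it was called for Dox (0.16) and for the inhibitor without and with Dox (-0.21 and -0.35). Its 3 values were 0.44, 0.37 and 0.31 in vehicle and 0.53, 0.52 and 0.54 with Dox. With the inhibitor they were 0.17, 0.22 and 0.18 and with both 0.23, 0.21 and 0.17.

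Transcript GC content moved with the Dox changes. Over 31 members, the rank correlation of change with mean transcript GC content was -0.45 for Dox and -0.57 for Dox under the inhibitor. Over 11996 genes it was -0.39 and -0.56. The points share the same libraries, and no p is given. For the inhibitor it was 0.19 without Dox and 0.22 with it among members, and 0.23 and 0.09 over the 11996 genes. With the trend removed, 10 members were called higher and 1 lower with Dox, and 7 and 3 under the inhibitor. The calls it ended were those of ACADSB, HADHA, HADHB, ETFA and HSD17B4 already named. For Dox it added calls of ACADS (0.38), DECR2 (0.39) and ETFB (0.19). Under the inhibitor it added ACADS (0.28), ACADVL (0.14), DECR2 (0.31), ETFB (0.24) and PPARD (-0.19). For the inhibitor it added ACAD10 (0.22), ACADS (-0.34) and HADHB (0.15) without Dox, CPT1A (-0.17), CPT2 (-0.23) and ECI1 (-0.24) with it, and HADHB in the interaction (-0.29).

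**Figure D5:**
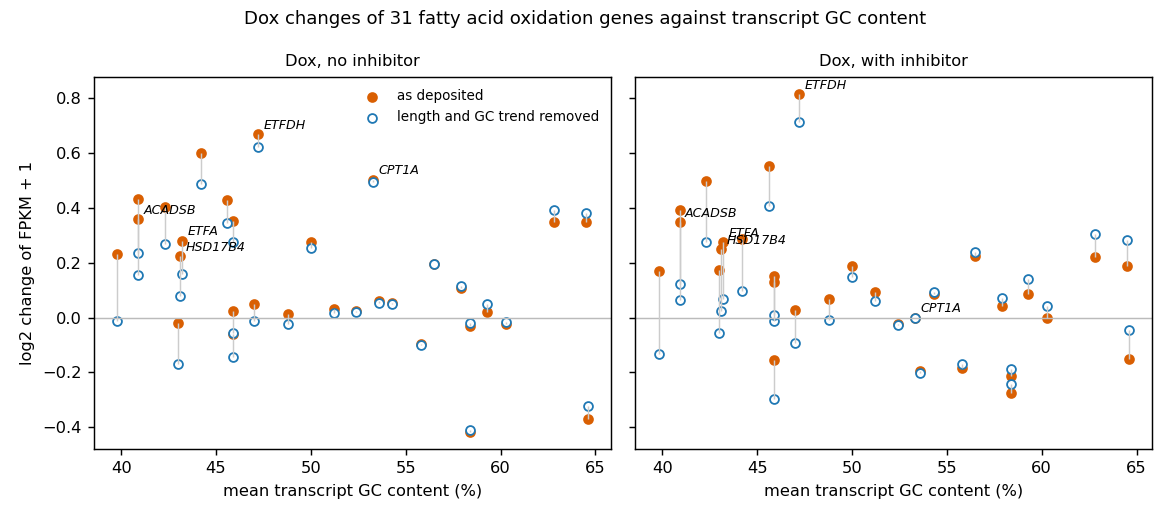
Log2 change with Dox (y axis) of the 31 tested members against mean transcript GC content (x axis), without the inhibitor (left) and with it (right). Grey lines join each deposited value (filled) to its value with the length and GC trend taken out (open), and ETFDH keeps the highest value in both panels.

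Other genes of the pathway were followed through lists, and each count reads against the 17.9%, 18.2%, 38.0% and 32.1% of all tested genes called for Dox, Dox under the inhibitor, the inhibitor and the inhibitor in Dox. Of 31 genes for fatty acid uptake and activation 22 were tested, and Dox raised 5 without the inhibitor, and raised 2 and lowered 2 with it. The inhibitor raised 3 and lowered 1 without Dox, and raised 3 and lowered 4 with it. The shares called were 22.7%, 18.2%, 18.2% and 31.8%. ACSL1, which activates long-chain fatty acids, averaged 13.4 FPKM in vehicle, 30.5 with Dox, 15.3 with the inhibitor and 18.1 with both. It rose with Dox by 1.13 ± 0.09 (adjusted p = 9.0e-06) and fell with the inhibitor in Dox (-0.72 ± 0.09, adjusted p = 1.2e-04). SLC22A5, the carnitine importer, averaged 3.05, 2.40, 5.09 and 2.93 FPKM in the same order. It rose with the inhibitor by 0.60 ± 0.11 (adjusted p = 0.0013) and fell with Dox under the inhibitor (-0.64 ± 0.11, adjusted p = 0.0029).

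Of 24 genes for peroxisomal import, alpha-oxidation and other enzymes 19 were tested, and Dox raised 6 and lowered 1, and under the inhibitor 5 and 1. The inhibitor raised 3 and lowered 9 without Dox, and 2 and 7 with it. The shares called were 36.8%, 31.6%, 63.2% and 47.4%. PHYH, the first enzyme of alpha-oxidation, rose with Dox from 6.10 to 12.2 FPKM, by 0.90 ± 0.06 (adjusted p = 2.6e-06), and under the inhibitor from 5.33 to 8.17, by 0.53 ± 0.06 (adjusted p = 2.3e-04). AMACR, the racemase of branched-chain acyl-CoA, rose with the inhibitor from 4.22 to 7.87 FPKM, by 0.76 ± 0.08 (adjusted p = 2.0e-05), and in Dox from 3.19 to 5.83, by 0.71 ± 0.08 (adjusted p = 4.3e-05). Of 16 peroxins, which build peroxisomes, 15 were tested, and limma called 0 for Dox (2 higher and 0 lower at an unadjusted p under 0.05) and 2 higher under the inhibitor. The inhibitor raised 1 and lowered 6 without Dox and lowered 6 with it, PEX14 the most without Dox (-0.57 ± 0.09, adjusted p = 4.3e-04). The shares called among peroxins were 0%, 13.3%, 46.7% and 40.0%.

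Of 18 tested genes for odd-chain and branched-chain acyl-CoA, Dox raised 2, and 7 under the inhibitor. The inhibitor raised 1 and lowered 6, and in Dox 2 and 6, which made shares of 11.1%, 38.9%, 38.9% and 44.4%. MCCC1, of leucine breakdown, rose with Dox by 0.58 ± 0.05 (adjusted p = 2.3e-05). ACAT1, a thiolase, fell with the inhibitor (-0.54 ± 0.06, adjusted p = 3.8e-05), a change of -0.34 with the length and GC trend removed. Of 15 genes for ketone bodies and thioesterases 12 were tested, and Dox raised 2 and lowered 1 in each comparison, and the inhibitor raised 3 and lowered 1 in each (25.0%, 25.0%, 33.3% and 33.3%).

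Of 18 PPAR targets outside oxidation 8 were tested, and Dox raised 3, and 4 under the inhibitor, while the inhibitor lowered 4 without Dox, and raised 1 and lowered 5 with it (37.5%, 50.0%, 50.0% and 75.0%). For Dox without the inhibitor, 3 of the 8 changes were positive. The list median there was -0.10, against 0.04 for all tested genes. At an unadjusted limma p under 0.05, 3 were higher and 3 lower. Under the inhibitor 5 were positive, at medians of 0.26 and 0.08. PLIN2, a lipid droplet coat protein, averaged 31.2 FPKM in vehicle, 67.7 with Dox, 13 with the inhibitor and 24.6 with both. It rose with Dox by 1.09 ± 0.05 (adjusted p = 1.5e-07) and fell with the inhibitor (-1.20 ± 0.05, adjusted p = 3.2e-08). Of 35 partners and other regulators 28 were tested, and Dox raised 4 and lowered 3, and raised 2 under the inhibitor. The inhibitor raised 2 and lowered 6, and in Dox 4 and 7 (25.0%, 7.14%, 28.6% and 39.3%). PPARG rose with Dox from 9.42 to 14.6 FPKM, by 0.58 ± 0.07 (adjusted p = 2.2e-04), and fell with the inhibitor in Dox to 7.5 (-0.88 ± 0.07, adjusted p = 5.1e-06). NCOA3, a nuclear receptor coactivator, rose with the inhibitor from 17.8 to 35.8 FPKM, by 0.96 ± 0.08 (adjusted p = 4.5e-06). Of 10 lipolysis genes 9 were tested, and Dox lowered 1, and raised 1 and lowered 2 under the inhibitor, while the inhibitor raised 2 and lowered 1 in each comparison (11.1%, 33.3%, 33.3% and 33.3%). MGLL, monoglyceride lipase, fell with the inhibitor from 54.3 to 28.2 FPKM (-0.92 ± 0.07, adjusted p = 3.1e-06). G0S2, which inhibits the lipase PNPLA2, rose from 1.12 to 5.71 FPKM, by 1.68 ± 0.17 (adjusted p = 2.0e-05).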

How the data were processed

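Poly(A) RNA from 12 HK-2 cultures was extracted with TRIzol and made into libraries with a stranded TruSeq mRNA kit, per the labels' protocols. Tools named in the submitters' processing notes were Salmon 1.9.0 and Trim Galore 0.6.7, with builds GRCh38.p13 and hg38, without roles. How FPKM was computed, and from which annotation, is not given in the sources used here. The authors deposited 1 table of FPKM values with 2 decimals (26334 genes); its depth is unknown, which limits precision at low values, and no counting intervals are given. log2(FPKM + 1) was fitted with limma 3.58.1 in R 4.3.3, with 4 group means, a trend, 8 residual degrees of freedom and Benjamini-Hochberg adjustment over 12649 genes. The script was tested on simulated data. Members and lists were chosen with earlier results of these data known. All called members were named, with the largest called changes of the other lists. Replicate numbers were taken as pairs for Dox under the inhibitor, where same-number deviations correlated at 0.133 to 0.549; in the other 3 comparisons at least 1 pair was under 0.1. Gene positions and transcript GC come from GENCODE 29 (94.8% of tested genes matched), and promoters from RefSeq for 27 of 35 members. Alternatives were a pseudocount of 0.1, no filter, a mean FPKM of at least 5, median-ratio and quantile scaling, the replicate block, removal of the trend on length and GC, fits of the compared libraries alone, and each library left out. Library names give group and replicate (DMSO 1). A few results are not reported here.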

Additional observations from a re-analysis of the deposited data

Results flagged for a closer look

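Among the 31 tested members and 140 tested genes of the pathway lists, for 8 genes (1 and 7) the Dox change with the inhibitor differed from that without it in the interaction test (limma, Benjamini-Hochberg adjusted), against 357 of all 12649 tested genes (2.82%). CPT1A was the only member among the 31 tested, at -0.50 (adjusted p = 0.039), rising with Dox from 5.42 to 8.10 FPKM without the inhibitor and lying at 6.87 and 6.85 with it. The call ended without any library but DMSO 1, Dox 3 and inhibitor 3 (-0.54 to -0.46). The other 7 came from the pathway lists. ACSL1 had -0.90 (adjusted p = 0.003), which remained under every alternative run. UCP2, a mitochondrial carrier, had 0.49 (adjusted p = 0.0099), also under every alternative, and averaged 202, 191, 191 and 256 FPKM in vehicle, Dox, inhibitor and both. PLIN4, a lipid droplet coat protein, had -0.59 (adjusted p = 0.016), which ended with a pseudocount of 0.1 (-1.12) and without DMSO 2 (-0.57), Dox 2 (-0.59) or Dox 3 (-0.56). TXNIP had 0.55 (adjusted p = 0.018), which ended without DMSO 2 (0.54), Dox 1 (0.55), Dox 2 (0.53) or inhibitor 2 (0.54). PHYH had -0.37 (adjusted p = 0.043), which ended with a pseudocount of 0.1 (-0.39), without the filter, and without any library but Dox plus inhibitor 2 (-0.38 to -0.32). PPARG had -0.49 (adjusted p = 0.026), which ended without any library but DMSO 1, Dox 3, inhibitor 1 and Dox plus inhibitor 1 (-0.51 to -0.45). G0S2 had -1.18 (adjusted p = 0.023), which ended with a pseudocount of 0.1 (-1.46) and without inhibitor 2 or any library that received Dox (-1.23 to -1.15).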

How the results depend on the processing

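Of 49 member calls, 32 remained under every alternative run, and the report gives what ended the others. Members called for Dox without the inhibitor numbered 10, and 7 to 12 with 1 library left out. For Dox under the inhibitor there were 9, with 5 in a fit of those libraries alone and 4 to 10 with 1 library left out. For the inhibitor without Dox there were 15 (12 to 17 with 1 left out), and in Dox 14 (12 to 17). To the latter, a fit of those libraries alone added ACADM (-0.40), CPT1A (-0.21), CPT2 (-0.25), ECI1 (-0.30) and HADHA (-0.21). For the interaction there was 1, with 2 after median-ratio scaling, 2 with the trend on length and GC removed, and 0 to 1 with 1 library left out. The reversed value was HADHB for Dox under the inhibitor, -0.01 with the trend removed and -0.01 with the replicate block added. The cause of these changes was not tested.

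With the replicate block the members called numbered 14 for Dox, 14 for Dox under the inhibitor, 20 and 20 for the inhibitor without and with Dox, and 2 for the interaction, or 3 with the trend removed as well. The block ended no member call. Outside Dox under the inhibitor the samples were taken to share only a number. For the inhibitor without Dox, same-number correlations were 0.686, 0.097 and 0.505, and DMSO 2 correlated more with inhibitor 3 (0.244) than with inhibitor 2. For Dox under the inhibitor they were 0.549, 0.133 and 0.337. There too inhibitor 2 correlated more with Dox plus inhibitor 3 (0.154) than with Dox plus inhibitor 2. Taking only the latter comparison as paired thus rests on a cut of 0.1 that separates 0.133 from 0.097.

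Over all tested genes, calls for Dox numbered 2269, and 3741 with the block, 4164 with block and trend removal, 1492 without DMSO 2 and 1427 without Dox 3. Under the inhibitor Dox gave 2304, and 4548 with the block, 1099 in a fit of those libraries alone, 1352 without inhibitor 2, and 1245 and 1121 without Dox plus inhibitor 2 and 3. The interaction gave 357, and 666 with the block, 858 with the trend removed and 1130 with both. Without 1 library it gave 186 to 420, with 198 without DMSO 2, 186 without Dox 2, 207 without Dox 3, 204 without inhibitor 2, and 237 and 214 without Dox plus inhibitor 2 and 3. Depth is unknown, so members listed near 0 (CPT1C, ACADL, ACOX2) cannot be called absent.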

Other observations

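Replicate 1 stood apart in vehicle: of the 31 tested members, 18 had their highest and 11 their lowest vehicle value in it, against 10 and 9 in Dox replicate 1. In the Dox plus inhibitor group 16 were highest and 8 lowest in replicate 1, and in the inhibitor group 15 and 10. Relative to its mean, the vehicle spread was widest for ACADM (SD 27.9% of the mean) and ABCD3 (24.3%) among the 31, ABCD3 standing at 16.4, 22.6 and 27.1 FPKM.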
